A study of Mus musculus with 20 samples.

Results

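The genes described here drive and execute cell division. A list of 46 mouse genes, from the D-type cyclins of early G1 to the proteins that cut daughter cells apart, was looked up in the array annotation, and a gene was kept where a transcript cluster (the summary of the probes over the exons of a gene) carried its symbol and no other. In all, 45 of the 46 were found among 19937 genes with such a cluster, and Ccnb1 (cyclin B1) was not analysed here. Where a gene had several clusters, the one with the highest mean signal was used.

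RNA of the left ventricle from 20 male C57BL/6 mice was hybridized to Affymetrix Mouse Gene ST arrays, and each mouse had an array of its own. The 6 FA-DOXO mice had 1 intraperitoneal injection of doxorubicin at 20 mg/kg, and for the 7 days before it and until the end ate a soft dough diet that supplied 10 mg of folic acid (FA) daily. The 6 DOXO mice had the same injection and the diet without FA, which the labels call placebo. The 4 FA-sham mice had FA and no doxorubicin, and the 4 sham mice had neither. Tissue was taken at the end of the experiment, at 10 days, and the labels give an age of 2 months in every group. Doxorubicin is an anthracycline that is used against tumours and harms the heart, and FA is a B vitamin. All groups are of 1 strain and 1 sex. Each tissue piece held every cell type of the ventricle, and in such bulk tissue fewer cells of a type and less RNA per cell cannot be told apart.

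A cell enters the cycle when D-type cyclins with Cdk4 release E2F factors from the RB family, and cyclins E and A with Cdk2 then start DNA replication at sites licensed by the MCM helicase. Cyclins A and B with Cdk1 bring the cell into mitosis, where Aurora and Polo kinases, the spindle checkpoint and kinesin motors sort the chromosomes before the cell is divided. Cardiomyocytes of the adult mouse rarely divide, and most cycling cells of an adult ventricle are endothelial cells, fibroblasts and immune cells. Doxorubicin poisons topoisomerase II and breaks DNA, and dividing cells respond to such breaks with arrest.

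Many genes of mitosis are switched on together late in the cycle through a pair of short promoter motifs, the cell cycle genes homology region (CHR) and the CCAAT box, whereas genes of replication often carry an E2F motif. The promoters of 4 members that were estimated lower in DOXO than in sham hearts are given because they show this arrangement. Among them Ccnb2 did not pass the p threshold given below, and Kif23 was not lower with FA in the diet. Since the 4 were picked for their motifs, whether the motifs go with a response to doxorubicin was not tested. Each runs 5′ to 3′ along the gene from 150 bases before the RefSeq transcription start to 25 bases after it, on build GRCm38.p6, with every match of the 3 motifs in capitals. CHR was searched as TTTGAA, and a variant of it as TTCGAA. The CCAAT box reads ATTGG where it lies on the other strand. The E2F motif was searched in 3 forms, of which TTTCGCGC is the one seen below, the second was TTTGGCGC and the third TTTCCCGC. The 4 stretches are Cdk1 at chr10:69352888-69353062 on the minus strand, Ccnb2 at chr9:70421530-70421704 on the minus strand, Cenpa at chr5:30666736-30666910 on the plus strand, and Kif23 at chr9:61946775-61946949 on the minus strand.
Cdk1: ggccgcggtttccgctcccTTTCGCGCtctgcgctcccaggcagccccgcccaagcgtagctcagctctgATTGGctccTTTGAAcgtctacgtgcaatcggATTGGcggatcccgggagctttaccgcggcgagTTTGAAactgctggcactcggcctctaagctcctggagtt
Ccnb2: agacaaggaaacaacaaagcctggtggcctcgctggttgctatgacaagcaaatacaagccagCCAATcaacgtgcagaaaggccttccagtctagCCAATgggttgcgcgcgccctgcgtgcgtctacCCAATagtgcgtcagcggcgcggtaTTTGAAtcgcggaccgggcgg
Cenpa: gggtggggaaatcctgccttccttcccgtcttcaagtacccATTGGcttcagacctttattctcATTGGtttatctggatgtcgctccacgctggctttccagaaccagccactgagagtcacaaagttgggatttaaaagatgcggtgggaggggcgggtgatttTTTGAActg
Kif23: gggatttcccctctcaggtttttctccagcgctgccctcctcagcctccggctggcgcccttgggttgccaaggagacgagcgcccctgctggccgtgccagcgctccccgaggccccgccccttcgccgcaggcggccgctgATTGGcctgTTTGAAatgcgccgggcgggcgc
All 4 hold CHR and CCAAT, and Cdk1 alone of the 4 holds an E2F motif as well. Both strands were searched in windows of 250 bases before and 50 bases after the start, and no match of one motif overlapped a match of another in the 4 stretches above. A window was given for 37 of the 45 members. Among those 37, CHR was in 20 (54.1%), CCAAT in 28 (75.7%) and an E2F motif in 8 (21.6%), against 21.7%, 41.1% and 2.12% of all 27025 genes with a window. Of 20 members that act in mitosis and division, 16 (80.0%) held CHR, 16 held CCAAT and 1 held an E2F motif (Cdk1). Of the 11 members of replication and nucleotide supply, 3 held CHR, 9 (81.8%) held CCAAT and 5 held an E2F motif (Cdc6, Mcm3, Mcm5, Mcm6 and Mcm7). CCAAT was thus about as frequent in the 2 sets. The windows describe letters and not binding, and windows of Ccnd1, Ccnd2, Ccne2, Ccna2, Foxm1, Aurkb, Kif20a and Tpx2 were not used here.

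Some arrays had a much broader range of signals than others. On 8 arrays the SD of all log2 signals was above 1.1 (1.14 to 1.50), and these are called wide. They were FA-DOXO replicates 5 and 6, DOXO replicates 1 and 5, FA-sham replicate 4, and sham replicates 1, 2 and 3. On the 12 narrow arrays the SD was 0.86 to 1.03. The defining genes of heart muscle were at hand throughout but shifted with this spread. The mean level of 12 cardiomyocyte markers above the array median was 4.98 to 6.74 on the wide arrays and 1.59 to 4.43 on the narrow ones. Since 3 of 4 sham arrays were wide and 3 of 4 FA-sham arrays were narrow, spread and group were partly mixed, so every difference below was estimated with the array SD as a covariate unless stated otherwise. Differences are in log2 units from limma over all 34760 clusters, and a difference was called at the study's unadjusted p of 0.01. The p-values set a difference against the spread between mice within groups. Each mouse had an array of its own, so spread that came from the arrays is part of it.

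Most cell cycle genes lay close to the middle of the array. Averaged over the 20 mice, 33 of the 45 were within 0.5 log2 units of the array median, 26 were at or below it and 19 above it. The signal of a cluster depends on its probes, so these levels place a gene on its array and do not rank amounts of RNA between genes. All 9 members of the spindle and cytokinesis, all 3 transcription factors (E2f1, E2f2 and Foxm1) and Mki67, the proliferation antigen Ki-67, averaged below the median. Only Pcna, Cdk4 and Ccnd2 averaged more than 1 unit above it, followed by Cenpa (0.90) and Ccnd1 (0.78). The lowest was Nusap1, a spindle microtubule protein, at -0.90.

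**Figure D1:**
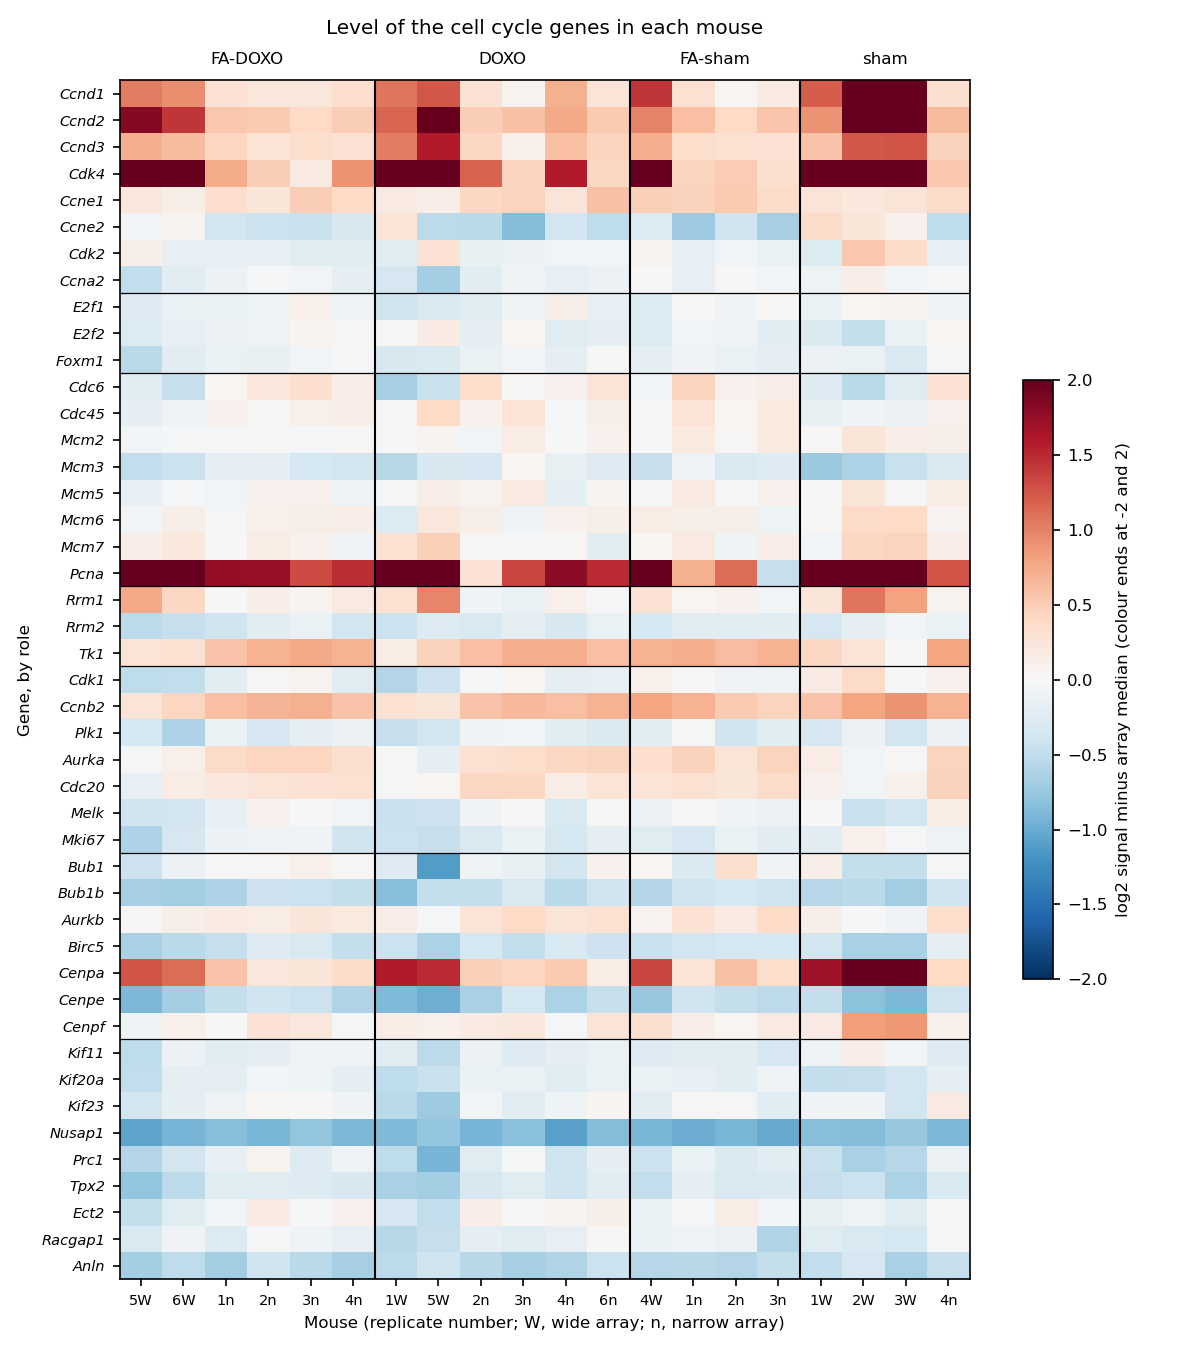
Level of each of the 45 cell cycle genes (rows, grouped by role from G1 cyclins at the top to cytokinesis at the bottom) in each of 20 mice (columns; W marks wide and n narrow arrays), as log2 signal minus the median of the array. Pcna, Cdk4, Ccnd1, Ccnd2 and Cenpa stand further above the median on each wide array than on any narrow one, and Pcna stands above it on most narrow arrays too, while most rows stay within 0.5 units of it.

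The few members with high signals moved with the spread of the array. Pcna, the sliding clamp of DNA polymerase, averaged 8.57 ± 0.61 in FA-DOXO, 8.33 ± 0.94 in DOXO, 7.51 ± 1.07 in FA-sham and 8.76 ± 0.76 in sham mice (log2 signal, SD, n = 6, 6, 4 and 4). Its second cluster averaged 8.03 in FA-DOXO, 8.11 in DOXO, 7.41 in FA-sham and 8.76 in sham mice. Which of the 2 clusters lies at the gene itself was not checked, so the Pcna values depend on the choice of cluster. Cdk4, the kinase partner of the D-type cyclins, averaged 7.93 ± 1.17 in FA-DOXO, 8.19 ± 1.15 in DOXO, 7.60 ± 1.09 in FA-sham and 9.07 ± 1.43 in sham mice. On the wide arrays Cdk4 was at 9.14 to 9.66 with doxorubicin and 8.83 to 10.28 without it, and on the narrow ones at 6.81 to 8.16 with doxorubicin and 6.95 to 7.14 without it. The 2 kinds of array did not overlap for Cdk4, and the doxorubicin and no doxorubicin mice did overlap within each kind. The slope on the array SD was above 0 for 10 of the 45 members (22.2%), beside 38.4% of all clusters, and steepest for Cdk4 (5.31 log2 units per unit of SD), Pcna (2.78), Ccnd2 (2.69), Cenpa (2.23) and Ccnd1 (2.20). For Cdk1 and Ccnb2 the slope was below 0 (-1.05 and -0.91).

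**Figure D2:**
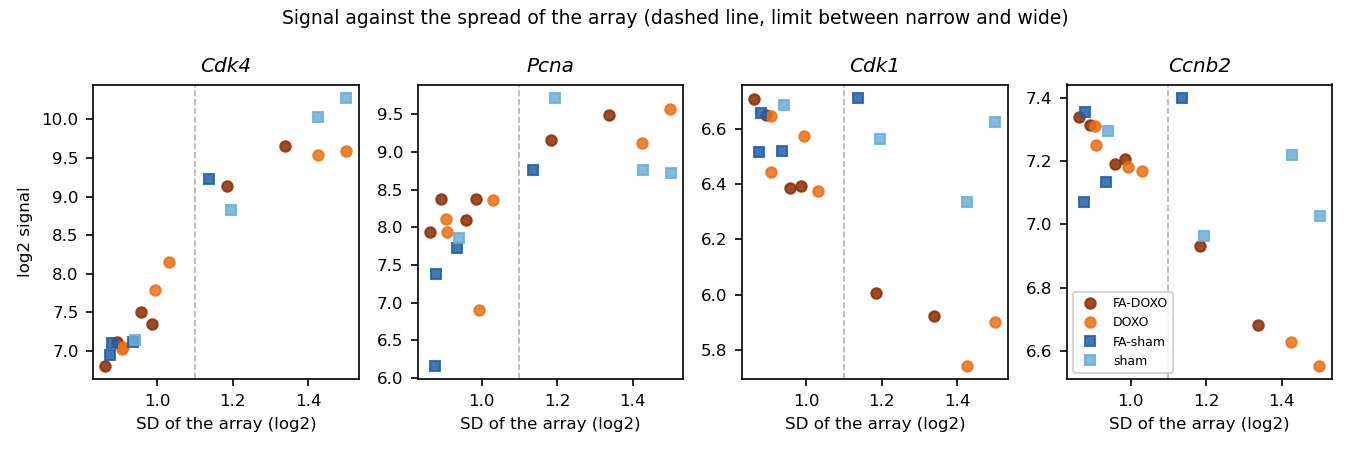
Log2 signal of Cdk4, Pcna, Cdk1 and Ccnb2 (vertical axes) against the SD of all log2 signals on the array (horizontal axes), with 1 point per mouse, circles for doxorubicin and squares for no doxorubicin. Cdk4 climbs with the SD in all groups, while to the right of the dashed line at 1.1 the circles of Cdk1 and Ccnb2 lie below the squares.

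In DOXO against sham hearts, 5 members fell and none rose. They were Cenpa, the histone H3 variant that marks centromeres, Cdk1, the kinase of mitotic entry, Ccnd1 (cyclin D1), Ccna2 (cyclin A2) and Kif23, a kinesin of the central spindle. These were 5 of 45 (11.1%), where 4.14% of all clusters were called and 1.00% were called lower. Of the 45 differences, 32 were below 0, with a median of -0.05 against 0.04 over all clusters. Without the covariate 19 were below 0 and 26 above it, with a median of 0.04 against 0.10 over all clusters. The sign of the median thus turned with the covariate, while the median stayed below that of all clusters. After quantile normalization without the covariate 32 were below 0, with a median of -0.07 against 0.02 over all clusters. After Benjamini-Hochberg adjustment over all clusters in limma none of the 45 passed 0.05, where 0.170% of all clusters did, and the smallest adjusted p was 0.0936. The other 40 differences lay between -0.43 (Ccnd2) and 0.24 (Mcm3). The count of 5 also depended on the covariate, since only Ccnd1 was called without it. The differences without it were -0.84 for Cenpa, -0.27 for Cdk1, -1.03 for Ccnd1, -0.13 for Ccna2 and -0.062 for Kif23. On wide arrays alone, 2 DOXO against 3 sham mice and without the covariate, 1 member was called. The share of all clusters called in that fit is not given here, so this count is not read as a result about the members. Only 1 sham array was narrow, so DOXO and sham could not be compared as groups on narrow arrays.

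**Figure D3:**
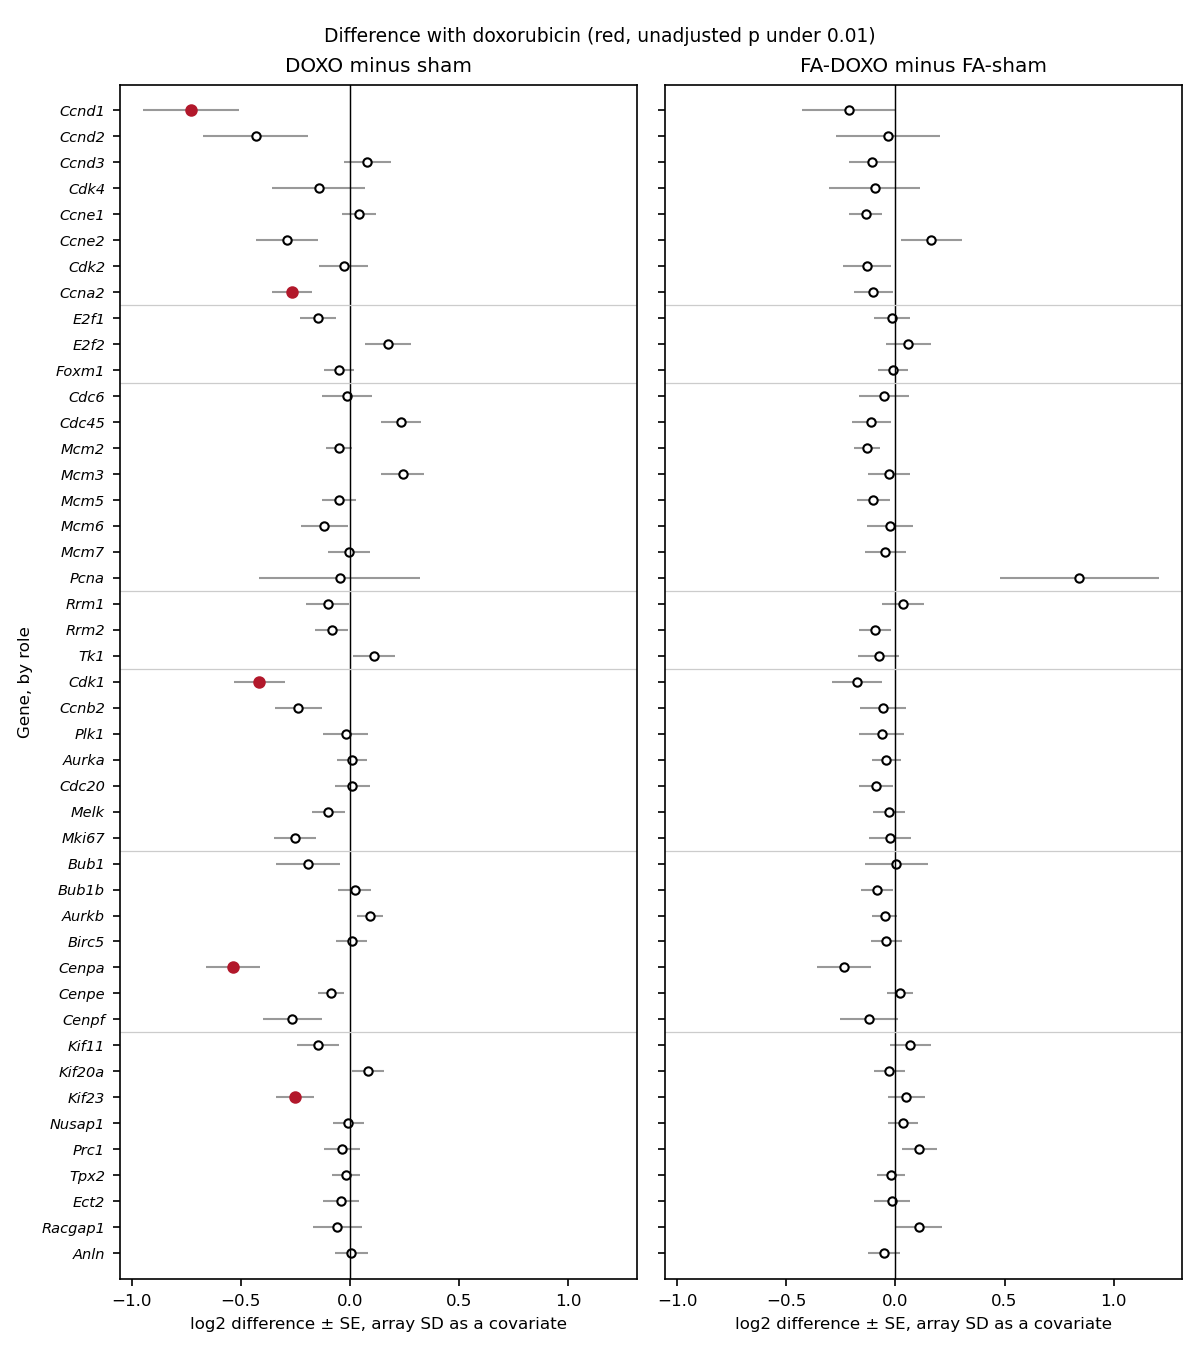
Difference in log2 signal (horizontal axes, point ± SE from limma with the array SD as a covariate) for the 45 genes, by role, in DOXO minus sham (left) and FA-DOXO minus FA-sham (right). Red points passed an unadjusted p of 0.01; 5 did so on the left, all below 0, and none on the right.

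Cenpa had the smallest p. Its log2 signals were 6.86, 6.88, 6.98, 7.18, 7.63 and 7.68 in FA-DOXO, 6.76, 7.04, 7.09, 7.09, 7.80 and 7.91 in DOXO, 6.93, 6.98, 7.19 and 7.94 in FA-sham, and 7.00, 8.09, 8.66 and 8.75 in sham mice. The signal was high on wide arrays in every group, and the 3 wide sham arrays were above all DOXO arrays while the narrow sham array was among them. The difference was -0.54 (SE 0.12, limma adjusted p = 0.0936) in DOXO minus sham and -0.24 (SE 0.12, limma adjusted p = 0.999) in FA-DOXO minus FA-sham. It was -0.39 (SE 0.09, limma adjusted p = 0.0809) averaged over both diets. The call held when each mouse was left out in turn, in DOXO minus sham and in the average.

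Cdk1 showed where the difference lay most plainly. On the wide arrays it was at 5.92 and 6.00 in FA-DOXO and 5.74 and 5.90 in DOXO mice, against 6.71 in the FA-sham mouse and 6.34, 6.56 and 6.62 in sham mice. On the narrow arrays it was at 6.39, 6.39, 6.65 and 6.71 in FA-DOXO and 6.38, 6.44, 6.57 and 6.65 in DOXO mice, against 6.52, 6.52 and 6.66 in FA-sham mice and 6.69 in the sham mouse. Doxorubicin and no doxorubicin mice were apart on the wide arrays and intermixed on the narrow ones. The difference was -0.42 (SE 0.12, limma adjusted p = 0.157) in DOXO minus sham, and the call was lost when DOXO replicate 1 was left out, at -0.32. It was -0.17 (SE 0.11, limma adjusted p = 0.999) in FA-DOXO minus FA-sham and -0.30 (SE 0.08, limma adjusted p = 0.193) in the average, which stayed called without each mouse in turn.

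Ccnd1 links growth signals to the cycle. Its signals were 6.85, 6.86, 6.89, 6.96, 7.43 and 7.46 in FA-DOXO, 6.69, 6.87, 6.90, 7.28, 7.40 and 7.55 in DOXO, 6.64, 6.81, 6.97 and 8.03 in FA-sham, and 6.92, 7.61, 8.93 and 9.13 in sham mice. Sham replicates 2 and 3 were far above all the other mice. The difference was -0.73 (SE 0.22, limma adjusted p = 0.185) in DOXO minus sham, -0.21 (SE 0.22, limma adjusted p = 0.999) in FA-DOXO minus FA-sham and -0.47 (SE 0.15, limma adjusted p = 0.301) averaged. The call in DOXO minus sham was lost without sham replicate 2, sham replicate 3, DOXO replicate 1 or DOXO replicate 5, with differences between -0.99 and -0.59 over all 20 mice left out. The call in the average was lost without any 1 of 7 mice (the same 4, FA-DOXO replicate 5, and FA-sham replicates 1 and 4), with differences between -0.59 and -0.38 over the 20. Ccnd1 was also the single member called without the covariate, at -1.03 (limma adjusted p = 0.647) in DOXO minus sham, where 1.05% of all clusters were called.

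Ccna2 serves both S phase and mitotic entry, and its wide arrays were at 5.94 and 6.29 in FA-DOXO and 5.64 and 6.00 in DOXO mice, against 6.59 in the FA-sham mouse and 6.27, 6.29 and 6.36 in sham mice. Its narrow arrays were at 6.41 to 6.59 with doxorubicin and 6.50 to 6.60 without it. The groups overlapped on both kinds of array. The difference was -0.26 (SE 0.09, limma adjusted p = 0.239) in DOXO minus sham and -0.18 (SE 0.06, limma adjusted p = 0.349) averaged, and each call was lost in 15 of the 20 fits that left out a mouse.

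Kif23 was at 6.06 and 6.30 in FA-DOXO and 5.59 and 5.78 in DOXO mice on the wide arrays, against 6.40 in the FA-sham mouse and 5.96, 6.17 and 6.32 in sham mice. Both DOXO mice were below every sham mouse there, whereas the FA-DOXO mice lay within the sham range. The difference was -0.25 (SE 0.09, limma adjusted p = 0.231) in DOXO minus sham and 0.05 (SE 0.08, limma adjusted p = 0.999) in FA-DOXO minus FA-sham. The call was lost in 13 of the 20 fits that left out a mouse, and without the covariate, where DOXO minus sham was -0.062 (SE 0.20).

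**Figure D4:**
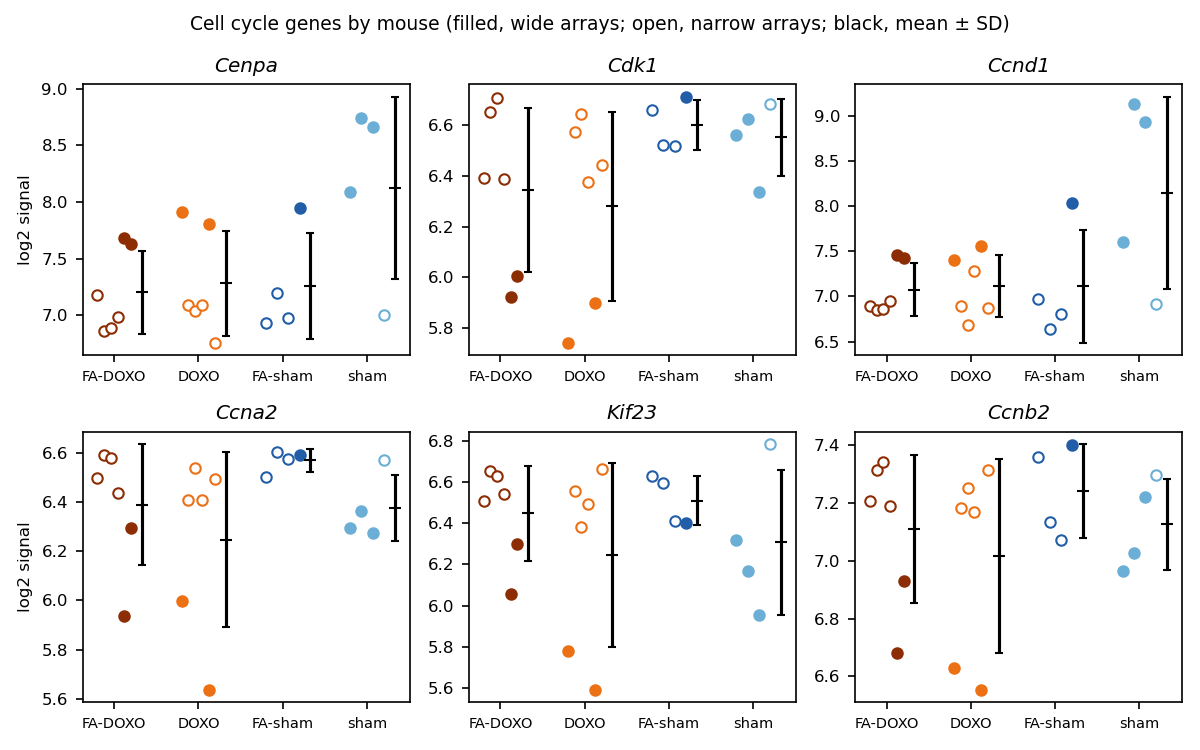
Log2 signal of Cenpa, Cdk1, Ccnd1, Ccna2, Kif23 and Ccnb2 in each mouse by group, filled where the array was wide and open where it was narrow, with the group mean ± SD in black (n = 6 FA-DOXO, 6 DOXO, 4 FA-sham and 4 sham). The filled points of the doxorubicin groups lie below those of the sham groups for Cenpa, Cdk1, Ccnd1 and Ccnb2, and the open points with and without doxorubicin overlap for each gene.

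The same comparison was made within each kind of array, with the diets merged so that 4 doxorubicin mice stood against 4 without it on wide arrays and 8 against 4 on narrow ones. The array SD was not a covariate in these fits within a kind, although it still ran from 1.14 to 1.50 on the wide arrays. On the wide arrays 5 members were lower in every doxorubicin mouse than in any mouse without it (11.1%), beside 0.834% of all clusters, and none was higher in every one, beside 0.866% of all clusters. These were Ccnd1, Cdk1, Cenpa, Mki67 and Ccnb2 (cyclin B2, a Cdk1 partner in mitosis that was chosen for description after its values were seen). Ccnb2 was at 6.55 to 6.93 with doxorubicin against 6.96 to 7.40 without it, and Mki67 at 5.81 to 6.17 against 6.18 to 6.37. Over all arrays and with the covariate, DOXO minus sham was -0.24 for Ccnb2 (SE 0.11, limma adjusted p = 0.377) and -0.25 for Mki67 (SE 0.10, limma adjusted p = 0.281), neither called. After quantile normalization without the covariate the difference of Ccnb2 turned to the other sign, at 0.047. The 2 ranges of each gene met closely, and on the narrow arrays they overlapped (Ccnb2, 7.17 to 7.34 against 7.07 to 7.36; Mki67, 6.22 to 6.56 against 6.33 to 6.50). Values apart in this way give a two-sided exact permutation p of 0.0286 for each of the 5, which is the smallest that 4 against 4 mice allow, and the 5 were picked for being apart. In limma on the wide arrays, Cdk1 was called (-0.67, SE 0.15, limma adjusted p = 0.976), where 0.682% of all clusters were called and 0.268% were called lower. There 37 of 45 differences were below 0, and their median was -0.14 against 0.01 over all clusters. On the narrow arrays no member was called and none was apart, where 1.69% of all clusters were called and 0.503% were lower in every doxorubicin mouse. The median of the 45 was -0.03 there, against -0.02 over all clusters.

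The mean level of the 23 members of mitosis and division (mitotic entry and exit, checkpoint and centromere, spindle and cytokinesis) against the array median was described for each mouse. On the wide arrays it was -0.37 to -0.22 in the 4 doxorubicin mice and -0.15 to -0.07 in the 4 mice without it. Without Cenpa it was -0.46 to -0.28 and -0.26 to -0.17. On the narrow arrays the mean of the 23 was -0.18 to -0.04 with doxorubicin and -0.13 to -0.03 without it. The 11 members of replication and nucleotide supply were at 0.15 to 0.45 with doxorubicin and 0.22 to 0.33 without it on the wide arrays, so that the ranges overlapped. None of these 11 was called in DOXO minus sham. The 2 with the largest values above 0 were Mcm3 (0.24, SE 0.10) and Cdc45, which joins the MCM helicase at the fork (0.23, SE 0.09, limma adjusted p = 0.294).

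Markers of other cell types that a ventricle holds changed as well. Of 12 neutrophil markers 7 rose in DOXO against sham hearts and none fell (58.3%, beside 3.14% of all clusters called higher), and their mean level on the wide arrays was -0.15 to 0.75 with doxorubicin and -0.58 to -0.38 without it. Of 10 macrophage markers 3 rose (Cd68, C1qa and Lyve1), which is 30.0%. Of 7 erythroid markers 1 fell, Alas2, the haem synthesis enzyme of red cell precursors (-0.70, SE 0.15, limma adjusted p = 0.0618), beside 1.00% of all clusters called lower. The 7 differences were mixed, 3 below 0 and 4 above it, with a median of 0.04. On the wide arrays the mean level of the 7, Alas2 included, was -0.24 to -0.04 with doxorubicin and -0.01 to 0.17 without it. Of the 12 cardiomyocyte, 10 endothelial, 9 fibroblast and 5 found B cell markers none was called. Of 8 smooth muscle and pericyte markers 1 rose, Des (12.5%), and of 9 found T and NK cell markers 1 rose, Cd3g (11.1%). In FA-DOXO against FA-sham hearts none of the neutrophil, macrophage or erythroid markers was called. Cd3g was called lower there, where 0.463% of all clusters were called lower. The part of these cells in the lower signals of the cell cycle genes was not tested.

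With FA in the diet, no member was called in FA-DOXO against FA-sham hearts, where 1.07% of all clusters were called, and 34 of the 45 differences were below 0 with a median of -0.04 against -0.02 over all clusters. At an unadjusted p under 0.05 there were 2 (4.44%), beside 4.92% of all clusters. Pcna was at 7.94, 8.10, 8.37, 8.38, 9.15 and 9.48 in FA-DOXO against 6.17, 7.38, 7.73 and 8.75 in FA-sham mice, a difference of 0.84 (SE 0.36, limma adjusted p = 0.989). It was 0.48 without FA-sham replicate 3, and 1.13 and called without FA-sham replicate 4. The second cluster of Pcna differed by 0.32 (SE 0.21), so the size of the difference depended on the cluster used. Mcm2, a subunit of the MCM helicase, was at 6.37 to 6.65 in FA-DOXO against 6.60 to 6.86 in FA-sham mice (-0.13, SE 0.06, limma adjusted p = 0.998). Only 1 FA-sham array was wide, so the comparison on wide arrays had a single mouse on that side.

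Whether FA changed these genes was tested in 3 ways, and no member was called in any of them. In FA-DOXO against DOXO hearts 1.11% of all clusters were called, and 2 members (4.44%) were under an unadjusted p of 0.05, beside 5.86% of all clusters. Rrm1, the large subunit of ribonucleotide reductase, was at 6.61 to 7.18 in FA-DOXO against 6.48 to 7.29 in DOXO mice (0.21, SE 0.09, limma adjusted p = 0.839), and Ccne2 (cyclin E2) was at 6.18 to 6.55 against 5.75 to 6.59 (0.27, SE 0.12, limma adjusted p = 0.839). The ranges overlapped for both. For Cdk1 the difference between FA-DOXO and DOXO was -0.03 (SE 0.10) and for Cenpa 0.12 (SE 0.11). In FA-sham against sham hearts 1.83% of all clusters were called, and the smallest p among the members belonged to Kif23 (-0.22, SE 0.10, limma adjusted p = 0.622) and Cdk1 (-0.27, SE 0.14, limma adjusted p = 0.664), of which both turned above 0 without the covariate (0.20 and 0.05). For the interaction, the doxorubicin difference with FA minus that without it, 1.78% of all clusters were called, and Cdc45 (-0.34, SE 0.13, limma adjusted p = 0.537) and Kif23 (0.30, SE 0.12, limma adjusted p = 0.545) had the smallest p. Without the covariate the interaction of Kif23 was 0.0018 (SE 0.29). These comparisons share groups and are not independent of each other.

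Averaged over both diets, 4 members fell with doxorubicin and none rose (Cenpa, Cdk1, Ccnd1 and Ccna2), 8.89% of the 45, where 2.83% of all clusters were called and 0.814% were lower. The calls of Ccnd1 and Ccna2 were lost in 7 and 15 of the 20 fits that left out a mouse, and without the covariate none of the 4 was called. Of the 45 differences 35 were below 0, with a median of -0.04 against 0.01 over all clusters. Without the covariate 28 were below 0, with a median of -0.02 against 0.02 over all clusters. By role, those below 0 with the covariate were 8 of 8 in G1 and S phase, 7 of 7 in mitotic entry and exit, 6 of 7 in the checkpoint and centromere group, 5 of 9 in spindle and cytokinesis, 5 of 8 in replication, 2 of 3 in nucleotide supply and 2 of 3 transcription factors. Aurka, a kinase of mitotic entry, turned above 0 without the covariate, at 0.025. Of the remaining genes named for their role, Aurkb, the kinase of the chromosomal passenger complex, differed by 0.09 (SE 0.06) and E2f1 by -0.15 (SE 0.08) in DOXO minus sham, neither called. Ccnd2 (cyclin D2) was at 7.11 to 8.73 in DOXO against 7.24 to 9.38 in sham mice (-0.43, SE 0.24, limma adjusted p = 0.479).

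Outside the 45, other genes of the cycle were described from 4 lists of 102 found genes. In DOXO against sham hearts 2 fell (Tfdp1 and Ube2c) and 2 rose (Tfdp2 and Mybl2), 3.92% of the 102 beside 4.14% of all clusters, and their median was 0.004 against 0.04 over all clusters. Among the 9 found inhibitors of cyclin-dependent kinases and members of the RB family none was called, and among 27 further replication genes none was called. Of 53 further mitosis genes 1 was called, Ube2c (1.89%). Of the 53 differences 28 were below 0 and 25 above it, with a median of -0.008. Ube2c, which marks cyclin B for destruction in mitosis, was at 6.03 and 6.18 in FA-DOXO and 5.99 and 6.07 in DOXO mice on wide arrays, against 6.72 in the FA-sham mouse and 6.39, 6.42 and 6.76 in sham mice, so that the 2 sides were apart as for Cdk1 (-0.33, SE 0.09, limma adjusted p = 0.157 in DOXO minus sham). Tfdp2, a partner of E2F factors in DNA binding, was at 6.98, 6.99, 7.80, 7.82, 10.24 and 10.24 in DOXO against 6.72, 8.18, 8.81 and 9.06 in sham mice. Both wide DOXO arrays were above every sham array. With the covariate Tfdp2 rose by 0.83 (SE 0.14, limma adjusted p = 0.0270) in DOXO minus sham and by 0.61 (SE 0.10, limma adjusted p = 0.0203) averaged, and without it the difference in DOXO minus sham was 0.15 (SE 0.66). Cdkn1b, the kinase inhibitor p27, was higher in FA-DOXO than in DOXO hearts by 0.40 (SE 0.13, limma adjusted p = 0.839), and by 0.09 (SE 0.42) without the covariate.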

How the data were processed

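The authors used R 2.14.2 with Bioconductor and deposited 1 log2 signal for each transcript cluster and array. How background and normalization were handled is not given in the sources used here, and array quantiles differ, so the spread of an array enters every comparison. Symbols came from the platform annotation. In limma 3.58.1 (R 4.3.3), 1 mean per group plus the centred array SD was fitted to 34760 clusters over all 20 arrays, unfiltered, in 6 moderated two-sided contrasts, and tested on simulated data. Exact permutation tests used SciPy 1.17.1. Alternatives covered the covariate, normalization, filter, fit, array weights, samples, blocks and leaving out every mouse once, and fits that merged the diets on wide or narrow arrays were added after seeing the data. Fits on wide or narrow arrays alone, and those after quantile normalization or after centring and scaling, did not use the array SD. The block of array kind stood in its place. Members, lists and motifs were chosen with earlier results of these data known. Members given in full are those called in any contrast, the 2 with the smallest p where fewer were called, the 5 with the highest mean level and 1 or more per role, 15 in all. Ccnb2, Mcm3, Nusap1, Aurka and Tfdp1 fall outside this rule and were named after their values were seen. The number of arrays limits the precision.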

Additional observations from a re-analysis of the deposited data

Results flagged for a closer look

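Of 80 groups of 4 or 6 mice examined for a lone value among the genes named, 3 had one, and chance alone gives about 1 in 20. Ccnd2 was at 8.73 in DOXO replicate 5, against 7.11 to 7.48 in the other 5 DOXO mice. Rrm1 was at 7.29 in the same mouse, against 6.48 to 6.68 in the others. Cdk4 was at 9.23 in FA-sham replicate 4, the single wide array of its group, against 6.95 to 7.12 in the other 3. All 3 values came from wide arrays. For Ccnd2 and Rrm1 the other 5 DOXO mice included replicate 1, whose array was wide as well.

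The doxorubicin difference of Mybl2, a factor that acts at promoters of mitosis genes, differed between diets by -0.43 (SE 0.14, limma adjusted p = 0.537). It was -0.11 (SE 0.10) in FA-DOXO minus FA-sham and 0.32 (SE 0.10) in DOXO minus sham, and the difference between diets was no longer called when any 1 of 6 mice was left out (FA-DOXO replicate 3, DOXO replicate 5, FA-sham replicates 1 and 4, and sham replicates 1 and 2).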

How the results depend on the processing

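For DOXO minus sham, the count of 5 members called became 1 without the covariate, 1 after quantile normalization, 0 after centring and scaling, 2 with the compared groups alone, 2 with array kind (wide or narrow) as a block, 1 on wide and 0 on narrow arrays alone (with a single narrow sham array), and 2 to 7 with a mouse left out. For doxorubicin averaged over both diets, 4 became 0, 1 and 1 in the first 3 of these, 2 with the array kind block, 1 on wide and 0 on narrow arrays, 1 and 0 there with diets merged, and 2 to 4 with a mouse left out. For FA-DOXO minus FA-sham, 0 became 1 with array weights and 1 with the array kind block, and 0 to 1 with a mouse left out. FA-DOXO minus DOXO gave 1 with array weights and 0 to 1 with a mouse left out, FA-sham minus sham 0 to 1, and the interaction 0 to 2. The share of all clusters called moved with the setting too. Without the covariate it was 1.05% in DOXO minus sham and 0.506% in the average, against 4.14% and 2.83% with it. With diets merged it was 0.682% on wide and 1.69% on narrow arrays. For the other alternatives that share is not given here, so their counts are not read as a result about the members. The cause was not tested. Deviations from the group means correlated from -0.86 to 0.84 between mice with the same replicate number. Such correlations mix wide and narrow arrays, so they cannot decide whether the replicate numbers pair the mice. With the replicate block 2 members were called in DOXO minus sham and 1 in the average.

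Some values turned sign. On narrow arrays Ccnd1 was at 0.015 in DOXO minus sham, against the single narrow sham array, 0.050 in the average (0.078 with diets merged) and 0.084 in FA-DOXO minus FA-sham, and Ccnb2 at 0.0043 in the average (0.031 with diets merged). After quantile normalization Ccnb2 was at 0.047 in DOXO minus sham. In FA-sham minus sham, Cdk1 was at 0.050 without the covariate, 0.00114 with the compared groups and 0.20 on wide arrays, and Kif23 at 0.20 without the covariate and 0.25 on wide arrays. In FA-DOXO minus FA-sham, Kif23 was at -0.061 without the covariate, -0.016 with the array kind block, -0.22 on wide arrays and -0.019 to 0.10 with a mouse left out. Most members lay near the array median, and whether these arrays resolve a change there was not tested. Among the members called in DOXO minus sham, Cdk1 (-0.11), Ccna2 (-0.15) and Kif23 (-0.16) averaged close to the median over all mice. Cenpa (0.90) and Ccnd1 (0.78) averaged further above it.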
